A study of Mus musculus with 12 samples.

Results

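The genes described here encode the machinery that makes ribosomes. The set comprised 48 genes, from RNA polymerase I subunits to factors that release the ribosomal subunits. The genes were chosen by name, with earlier results of these data known. All 48 were found by gene name among the 41457 genes counted in each library. They were followed in mouse regulatory T cells (Treg) of 2 genotypes, with and without T cell receptor stimulation. Sequenced messenger RNA came from 12 libraries in 4 groups of 3. CD18wt mice carried Foxp3Cre with wild-type CD18 alleles, and their CD18Foxp3 littermates carried Foxp3Cre with both CD18 alleles floxed, so that the β2-integrin chain CD18 (gene Itgb2) was deleted in cells that express the Treg transcription factor Foxp3. The line also carried a red fluorescent reporter (RFP) at the Rosa26 locus that Cre switches on, so RFP marks cells in which Foxp3Cre has been active, and the sorted cells of both genotypes were RFP+ CD4+ T cells from spleen. The study plotted these libraries as individual mice, so that the 3 libraries of a group stand for separate animals; the ages of these mice, and whether 1 mouse gave both an unstimulated and a stimulated culture, are not given in the sources used here. The unstimulated groups were kept overnight in 5 U/mL IL-2, and the stimulated groups received in addition 1 µg/mL anti-CD3 and 2 µg/mL anti-CD28.

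Ribosomes are assembled mainly in the nucleolus. RNA polymerase I copies the ribosomal DNA into a long precursor, small nucleolar ribonucleoproteins (snoRNPs) guide its methylation and pseudouridylation, and a large cast of assembly factors folds and cuts it into the small and large subunits, which receive their ribosomal proteins along the way. T cells leaving quiescence enlarge their nucleoli before they divide, and the transcription factor Myc is a well-known activator of this gene programme through the E-box, a short DNA word read by Myc and related factors.

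Because the genes were chosen by function, the letters in front of them were examined first. RefSeq promoter sequences, covering 250 bases before to 50 bases after each start site on GRCm38.p6, were found for 43 of the 48 genes. The E-box CACGTG, which reads the same on both strands, was present in the promoters of 12 of these 43 genes (27.9%), against 12% of the 9189 genes tested in these cells that had a promoter and 8.09% of all 27025 genes with a promoter. The 12 genes were Dhx33, Grwd1, Ltv1, Mybbp1a, Nop2, Pes1, Pno1, Rrn3, Tsr1, Utp20, Utp4 and Wdr43. The other words searched on both strands were the related E-box CATGTG (20.9% of the 43 genes against 10.3%), the GABP word CCGGAAG (41.9% against 21.8%), the SP1 word GGGCGG (74.4% against 69.1%), the YY1 word AAGATGGCG (2.33% against 3.89%) and TATAAA (6.98% against 8.24%). These matches are a description of letters and not of binding. The stretches of 40 bases around the 4 E-boxes that lie before the start sites of Dhx33, Nop2 and Rrn3 are shown because they are the ones upstream of transcription. Capitals mark the E-box, and each sequence reads 5′ to 3′ on the strand of its gene.
Dhx33, chr11:71004445-71004484, minus strand, E-box 35 bases before the start: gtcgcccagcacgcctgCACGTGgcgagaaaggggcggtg
Nop2, chr6:125131806-125131845, plus strand, E-box 60 bases before the start: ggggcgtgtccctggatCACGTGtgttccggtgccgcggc
Rrn3, chr16:13780467-13780506, plus strand, E-box 215 bases before the start: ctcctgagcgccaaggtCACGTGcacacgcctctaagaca
Rrn3, chr16:13780634-13780673, plus strand, E-box 48 bases before the start: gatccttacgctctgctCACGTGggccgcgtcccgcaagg

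The libraries held 10665174 to 19005482 reads over exons, of which 92.7% to 93.9% were uniquely placed, and all 48 genes passed the filter on low counts in every comparison. The fewest exon reads of any of them in a library were 197 (Pno1) and the most were 54455 (Npm1). Levels are given in TPM, a measure of transcript abundance corrected for transcript length and for the library total, and changes as log2 fold changes of edgeR on exon reads scaled by TMM, with standard errors after the ± sign. A gene was called when it changed at least 1.5-fold with an adjusted p of at most 0.01 (edgeR quasi-likelihood test, Benjamini-Hochberg over all genes tested). Treg markers (Foxp3, Il2ra, Ctla4, Ikzf2, Tnfrsf18) summed to 715 to 3872 TPM in every library, and the marker lists of 5 other cell types (B, plasma, myeloid, cytotoxic and erythroid cells) to at most 35.9 TPM each. The targeted gene Itgb2 stood at 465, 431 and 387 TPM in unstimulated CD18wt and 229, 257 and 234 TPM in unstimulated CD18Foxp3 Treg, a log2 difference of -0.85 ± 0.09 (adjusted p = 0.0041), and at 331, 329 and 329.6 against 131, 202 and 183 TPM after stimulation (-0.94 ± 0.17, adjusted p = 0.216), below every CD18wt library in both cultures. Itgal, which encodes the partner chain of CD18 in LFA-1, differed by -0.22 ± 0.10 (adjusted p = 0.492) and -0.29 ± 0.14 (adjusted p = 0.998).

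One library stood apart in these genes. In CD18Foxp3 stimulated replicate 1, the deviation of the 48 genes from the mean of the other libraries of the group ran against the GC content of the longest transcript (Pearson r = -0.77 over 48 genes that share this library), and over all 12633 genes with a transcript the r was -0.47. In the other 3 groups r lay between -0.35 and 0.25 in each library, while the remaining libraries of this group had r = 0.74 because their deviation is measured against it. The deviations had an SD of 0.51 on the log2 scale in this library and of 0.09 to 0.27 in the others. Fbl was 1.74 lower there than in the other libraries of its group, and Gar1 and Rrp9 were also more than 1 lower, whereas Nop10 was 0.73 higher. The count of calls on stimulation, the ranges of the genotype differences and the changes of some genes are therefore given with and without it. Other CD18Foxp3 values, with the group medians and the counts by fold, include it. Among genes given only with it, the deviation was -0.75 for Grwd1, -0.72 for Bop1, -0.60 for Rrp12 and -0.59 for Npm3. It was -0.55 for Rrs1, -0.54 for Bysl, -0.52 for Nop2 and 0.50 for Nop58, and smaller in size for the rest of these genes. In CD18wt, each library was likewise set against the mean of the other libraries of its group. Stimulated replicate 3 was above that mean in 46 of the 48 genes, stimulated replicate 1 below it in 48, and unstimulated replicate 1 below it in 47.

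**Figure D1:**
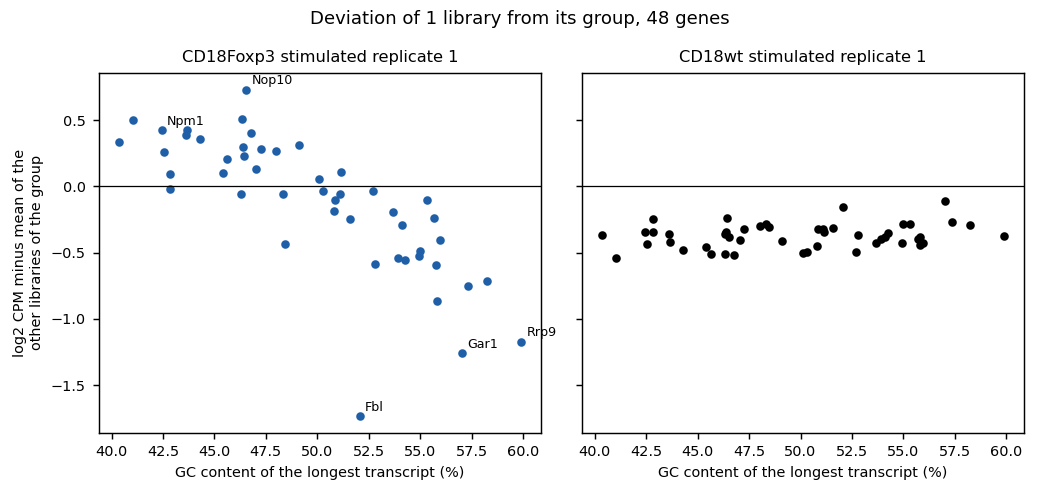
Deviation of each of the 48 genes from the mean of the other libraries of its group (y axis, log2) against the GC content of its longest transcript (x axis, percent), in CD18Foxp3 stimulated replicate 1 (left) and CD18wt stimulated replicate 1 (right); each point is a gene. In CD18Foxp3 stimulated replicate 1 the points fall from left to right (r = -0.77), down to Fbl at -1.74, and in CD18wt stimulated replicate 1 all lie below 0 with r = 0.25.

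Stimulation raised nearly all of the ribosome biogenesis genes in Treg of both genotypes. In CD18wt Treg 46 of the 48 genes were called higher and no log2 fold change was below 0, where 18.7% of all 11930 genes tested were called higher and 14.9% lower. Because the 48 genes were chosen with earlier results of these data known, the contrast with all genes is a description only, in both genotypes. The median log2 fold change of the 48 genes was 1.48, with a range from 0.22 to 2.37, and the median over all genes was 0.02. In CD18Foxp3 Treg 45 of 48 were called higher and again no log2 fold change was below 0, against calls in 20.9% and 17.6% of 12019 genes tested in the higher and lower direction, with a median of 1.58, a range from 0.48 to 2.51, and a median of 0.01 over all genes. Without CD18Foxp3 stimulated replicate 1 the count was 46. Changes of at least 2-fold were found in 40 genes of each genotype, of at least 3-fold in 20 and 24, and of at least 4-fold in 7 and 6.

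In TPM, every stimulated library lay above every unstimulated library of the same genotype for 48 genes in CD18wt, where this held for 47.8% of all genes tested, and for 47 in CD18Foxp3 (47.9% of all), where Fbl was the exception. On the TPM scale the median gene also rose on stimulation, so TPM ratios run above the fold changes of the fit. The scaling also moves the split of calls over all genes: 55.7% of the called genes were higher in CD18wt with TMM, 70.4% with library totals and 80.9% on log2(TPM + 1), and 54.3%, 66.5% and 75.9% in CD18Foxp3. The median of all genes in CD18wt was at -0.06 with upper-quartile factors, 0.02 with TMM, 0.22 with library totals and 0.36 on the TPM scale, and the median of the 48 genes stayed 1.45 to 1.46 above it under each of these and under RLE factors. In CD18Foxp3 this distance was 1.56 to 1.59.

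Summed over the 48 genes, the libraries held 3335, 3621 and 3809 TPM in unstimulated CD18wt and 3346, 3399 and 3369 TPM in unstimulated CD18Foxp3 Treg. After stimulation the sums were 9798, 10777 and 13347 TPM and 10914, 11743 and 10596 TPM. The stimulated libraries thus held 3.15 and 3.29 times the unstimulated mean, with no overlap, and within each culture the genotypes overlapped. Npm1 made up the largest part of these sums and Ncl followed. In bulk libraries, more cells of a type and more RNA per cell cannot be told apart. Marker lists of other cell types, apart from plasma cells, also moved with stimulation in at least 1 genotype. Those of B cells (5 genes) summed to 27.4 to 30.8 TPM before and 10.3 to 19.9 after it in CD18wt and 22.6 to 30.4 before and 8.79 to 11.9 after it in CD18Foxp3, and those of cytotoxic lymphocytes (5 genes, Ncr1 at 0 throughout) to 25.9 to 35.9 and 12.9 to 19.0 in CD18wt and 26.0 to 33.0 and 17.1 to 25.8 in CD18Foxp3. Myeloid markers (5 genes) went from 5.00 to 16.1 TPM to 0.387 to 2.34 in CD18wt, and in CD18Foxp3 from 1.74 to 7.80 to 1.73 to 2.60, which overlap. Erythroid markers (4 genes) were at 1.83 to 4.21 before and 0.725 to 2.56 after it in CD18wt, which overlap, and at 1.67 to 30.9 and 0.0813 to 0.263 in CD18Foxp3. Plasma cell markers (3 genes) overlapped in both genotypes. They were at 1.18 to 5.56 TPM before and 1.61 to 3.61 after stimulation in CD18wt, and at 1.24 to 5.23 and 2.36 to 3.72 in CD18Foxp3. Cd3e and Cd4 together went from 909 to 1060 TPM to 625 to 639.9 in CD18wt and from 957 to 1004 to 572 to 608 in CD18Foxp3, and the 5 Treg markers summed to 715 to 1124 TPM before and 2333 to 3169 after it in CD18wt and to 872 to 969.97 before and 3269 to 3872 after it in CD18Foxp3. The part of these changes in the results was not tested.

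**Figure D2:**
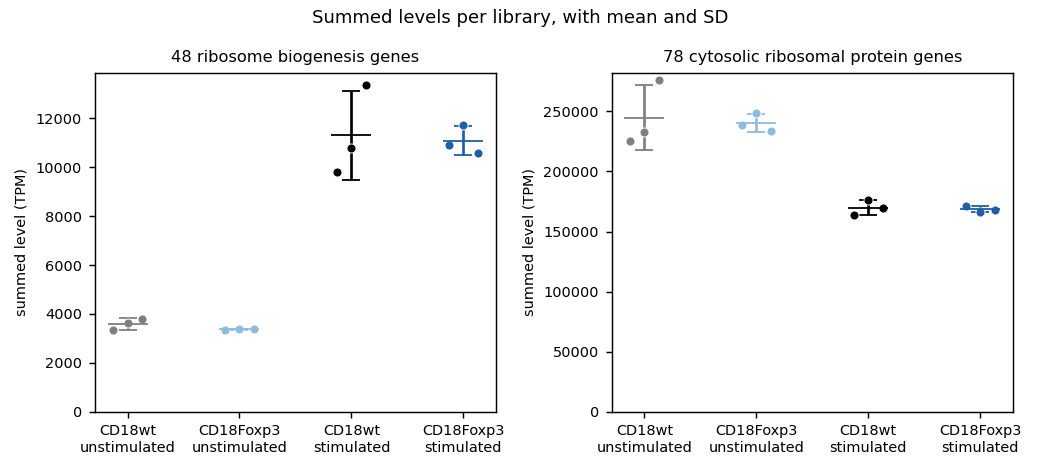
Summed TPM of the 48 ribosome biogenesis genes and of the cytosolic ribosomal protein genes in each of the 12 libraries; each point is a library, and the horizontal mark and error bar are the mean and SD of the 3 libraries of a group. The 48 genes rise from 3335 to 3809 TPM in unstimulated CD18wt libraries to 9798 to 13347 in stimulated ones, while the ribosomal protein genes run the other way.

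The 4 RNA polymerase I genes were all called higher in both genotypes, with a median log2 fold change of 0.94 in CD18wt and 0.95 in CD18Foxp3. Rrn3 encodes TIF-IA, the factor that lets RNA polymerase I start, and it had the highest mean level of the 4. It stood at 41.8, 42.8 and 33.6 TPM in unstimulated CD18wt and 36.6, 37.2 and 39.8 TPM in unstimulated CD18Foxp3 Treg, and at 81.5, 87.8 and 95.3 TPM (CD18wt) and 103, 95.6 and 86.1 TPM (CD18Foxp3) after stimulation. All stimulated libraries were above all unstimulated ones, with a log2 fold change of 0.77 ± 0.13 (adjusted p = 3.3e-04) in CD18wt and 0.96 ± 0.11 (adjusted p = 1.1e-04) in CD18Foxp3. Its promoter carries both of the E-boxes shown above. Polr1b, the second largest subunit of the enzyme, changed most of the 4, from 13.1, 16.2 and 15.7 TPM (CD18wt) and 14.6, 14.2 and 15.7 TPM (CD18Foxp3) to 60.7, 59.8 and 89.8 TPM (CD18wt) and 69.7, 72.9 and 60.8 TPM (CD18Foxp3). This was a log2 fold change of 1.82 ± 0.17 (adjusted p = 2.2e-06) in CD18wt and 1.83 ± 0.11 (adjusted p = 3.8e-06) in CD18Foxp3. The catalytic subunit gene Polr1a rose by 0.78 and 0.89 on the log2 scale, and Polr1e, a peripheral subunit, by 1.10 and 0.94.

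All 6 nucleolar organisation genes were called higher in both genotypes (medians 1.52 and 1.58). Npm1, the nucleolar histone chaperone and scaffold protein nucleophosmin (ENSMUSG00000057113, chromosome 11, 33152287 to 33163206 on GRCm38), was the most abundant of all 48 genes. It went from 1019.9, 973 and 1159 TPM in CD18wt and 965, 949 and 978 TPM in CD18Foxp3 to 2293, 2492 and 3079.8 TPM (CD18wt) and 3226, 2602 and 2341 TPM (CD18Foxp3). Its log2 fold change was among the smaller ones at 0.91 ± 0.16 (adjusted p = 4.8e-04) in CD18wt and 1.14 ± 0.14 (adjusted p = 1.1e-04) in CD18Foxp3, yet no other gene of the set gained more TPM. Gnl3, the nucleolar GTPase nucleostemin (ENSMUSG00000042354, chromosome 14, 31012433 to 31019152), had the largest estimated fold change of the set in both genotypes with all libraries. Its level was 11, 11.1 and 12.2 TPM in unstimulated CD18wt and 11.2, 11.8 and 9.41 TPM in unstimulated CD18Foxp3, and 60.3, 53.8 and 123 TPM (CD18wt) and 96.4, 77.6 and 62.6 TPM (CD18Foxp3) after stimulation. CD18wt stimulated replicate 3 was well above the other libraries, and so was CD18Foxp3 stimulated replicate 1. The log2 fold change was 2.37 ± 0.28 (adjusted p = 1.4e-04) in CD18wt and 2.51 ± 0.19 (adjusted p = 8.5e-06) in CD18Foxp3, and 2.29 without CD18Foxp3 stimulated replicate 1. Without CD18wt stimulated replicate 3 it was 1.94 in CD18wt, below the 2.13 of the gene then largest in the set, Pno1, which was also the largest without CD18wt unstimulated replicate 2, at 2.37. Npm3, a small relative of nucleophosmin, stood at 139.9, 187 and 153 TPM (CD18wt) and 159, 177 and 168 TPM (CD18Foxp3) before and 332, 388 and 428 TPM (CD18wt) and 275, 447 and 404 TPM (CD18Foxp3) after stimulation. With all libraries this was the smallest change of these 6 in both genotypes (0.86 in CD18wt and 0.79 in CD18Foxp3). In CD18Foxp3 stimulated replicate 1 the deviation was -0.59 for Npm3 and 0.42 for Npm1, so the ranking in CD18Foxp3 leans on that library. The remaining changes, CD18wt first, were 1.26 and 1.40 for Ncl (nucleolin, which binds the ribosomal RNA precursor), 1.90 and 1.99 for Nolc1 (a chaperone of snoRNPs), and 1.78 and 1.77 for Mybbp1a (a nucleolar Myb-binding protein).

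Most snoRNP genes rose. Of the 7, 6 were called higher in CD18wt (median 1.57) and 5 in CD18Foxp3 (median 1.87). Fbl, Nop56 and Nop58 form the box C/D particle that methylates ribosomal RNA, with fibrillarin (Fbl) as the methyltransferase. Dkc1, Gar1, Nhp2 and Nop10 form the box H/ACA particle that makes pseudouridine, with dyskerin (Dkc1) as the enzyme. Nhp2 had the highest mean level of them over the 12 libraries, through its level after stimulation, since Nop10 was higher in every unstimulated library. Its level was 104, 113 and 130.4 TPM (CD18wt) and 99.1, 109 and 111 TPM (CD18Foxp3) before and 506, 653 and 599 TPM (CD18wt) and 487, 605 and 620.4 TPM (CD18Foxp3) after stimulation. Its groups did not overlap and its change was the largest of the 7 in CD18wt, at 1.94 ± 0.17 (adjusted p = 1.5e-06), with 2.06 ± 0.12 (adjusted p = 2.9e-06) in CD18Foxp3. Nop10 (ENSMUSG00000027133, chromosome 2, 112261926 to 112263269), a partner of Nhp2 in the same particle, was at 147, 178 and 159 TPM (CD18wt) and 140.1, 179 and 141 TPM (CD18Foxp3) before and 213, 258 and 269 TPM (CD18wt) and 404, 251 and 249 TPM (CD18Foxp3) after stimulation. It was not called in either genotype, with log2 fold changes of 0.22 ± 0.14 (adjusted p = 0.239) and 0.62 ± 0.21 (adjusted p = 0.034), and without the highest library, CD18Foxp3 stimulated replicate 1, the latter was 0.30 ± 0.12 (adjusted p = 0.04). Every stimulated library was nevertheless above every unstimulated one in TPM.

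Fbl (ENSMUSG00000046865, chromosome 7, 28169710 to 28179269) showed the effect of 1 library most plainly. It stood at 89.3, 94.8 and 130.1 TPM in unstimulated CD18wt, 83, 101 and 86.7 TPM in unstimulated CD18Foxp3 and 279, 279.5 and 313 TPM in stimulated CD18wt, while the stimulated CD18Foxp3 libraries held 84.8, 293 and 287 TPM. Replicate 1 was at the unstimulated level and the others at the CD18wt stimulated level. The log2 fold change was 1.06 ± 0.17 (adjusted p = 2.2e-04) in CD18wt and 0.92 ± 0.37 (adjusted p = 0.059) in CD18Foxp3, not called, and 1.28 ± 0.09 (adjusted p = 3.1e-07) without that library, called. Only 28.3% of Fbl exon reads were uniquely placed, and 18.2% and 17.5% of its 59-base words, the read length, are shared with transcripts of Tulp4 and of the processed pseudogene Gm5812, so its level is uncertain. On uniquely placed reads it was called in CD18wt (1.09 ± 0.16, adjusted p = 8.1e-05) and not in CD18Foxp3 (0.89 ± 0.34, adjusted p = 0.043). The other 4 genes rose by 1.70 and 2.0 (Nop56), 1.44 and 1.87 (Nop58), 1.57 and 1.90 (Dkc1) and 1.61 and 1.47 (Gar1), CD18wt first, and Gar1 by 1.77 without CD18Foxp3 stimulated replicate 1.

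All 12 small subunit genes were called higher in both genotypes, with the highest group median in CD18wt (1.68, and 1.70 in CD18Foxp3). Nop14, Noc4l, Utp20, Utp4, Wdr43, Heatr1, Rrp9 and Rrp12 act in or near the small subunit processome, which folds the precursor as it is transcribed, and Bysl, Ltv1, Pno1 and Tsr1 act on the later particle. Pno1, an assembly factor that shields the end of the small subunit RNA, had the largest change in CD18wt and the highest mean level of the 12 after stimulation. Before stimulation it was below genes such as Wdr43 and Nop14 in mean level. It went from 32.4, 43.2 and 28.3 TPM in CD18wt and 38.4, 34.8 and 39.7 TPM in CD18Foxp3 to 176, 213 and 240.5 TPM (CD18wt) and 236, 203 and 202 TPM (CD18Foxp3), with 2.20 ± 0.17 (adjusted p = 7.1e-07) and 2.15 ± 0.13 (adjusted p = 2.9e-06) on the log2 scale. The groups were far apart, although 1 unstimulated library held only 197 of its reads. Nop14, a processome protein, changed least of the 12 in CD18wt, from 42.2, 48.5 and 44.7 TPM (CD18wt) and 46.9, 35.8 and 44.5 TPM (CD18Foxp3) to 112, 105 and 158 TPM (CD18wt) and 116, 138 and 112 TPM (CD18Foxp3), and was still called at 1.06 ± 0.15 (adjusted p = 7.2e-05) and 1.16 ± 0.13 (adjusted p = 8.7e-05).

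In CD18wt the other small subunit genes lay between these. On the log2 scale, CD18wt first, the processome genes gave 2.08 and 2.16 (Noc4l), 1.67 and 1.69 (Utp20), 1.79 and 1.87 (Utp4), 1.25 and 1.37 (Wdr43), and 1.45 and 1.65 (Heatr1). Rrp9, the protein that joins box C/D cores into the snoRNP of the processome, gave 1.69 and 1.56, and 1.84 without CD18Foxp3 stimulated replicate 1. Rrp12, a factor of particle export, gave 2.10 and 1.86. The late factors gave 1.92 and 1.89 (Bysl), 1.41 and 1.59 (Ltv1), and 1.42 and 1.70 (Tsr1). Of Tsr1 reads 76.4% were uniquely placed, and 25.3% of its 59-base words are shared with the neighbouring gene Srr.

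The large subunit genes formed the largest group, and all 15 were called higher in both genotypes (medians 1.53 and 1.56). Noc2l, a partner of Noc3l in early large subunit particles, was the most abundant, at 126, 130.4 and 143 TPM (CD18wt) and 120.5, 128 and 134 TPM (CD18Foxp3) before and 335, 376 and 486 TPM (CD18wt) and 283, 401 and 369 TPM (CD18Foxp3) after stimulation (1.18 ± 0.15, adjusted p = 4.2e-05, and 1.09 ± 0.13, adjusted p = 1.1e-04). Its stimulated libraries lay well above the unstimulated ones, and 86.1% of its reads were uniquely placed, with 18.9% of its words shared with the neighbouring gene Samd11. Ppan, which binds the large subunit precursor, changed most in CD18wt, from 14.7, 19.5 and 14.4 TPM (CD18wt) and 16.4, 17.7 and 19.2 TPM (CD18Foxp3) to 85.2, 76.5 and 145 TPM (CD18wt) and 52.4, 106 and 89.9 TPM (CD18Foxp3). The CD18Foxp3 stimulated replicate 1 was the lowest stimulated library here, and the log2 fold changes were 2.24 ± 0.21 (adjusted p = 4.6e-06) and 1.85 ± 0.22 (adjusted p = 1.1e-04), the latter 2.07 without it. Pes1, a member of the PeBoW complex with Bop1 and Wdr12 that matures the large subunit RNA, changed least in CD18wt, from 76.9, 93 and 70.5 TPM (CD18wt) and 79.9, 83.2 and 80.6 TPM (CD18Foxp3) to 168, 213 and 237 TPM (CD18wt) and 203, 221 and 205 TPM (CD18Foxp3) (0.97 ± 0.16, adjusted p = 2.0e-04, and 1.0 ± 0.10, adjusted p = 3.6e-05).

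The partners of Pes1 gave larger estimates, Bop1 1.19 and 1.08 and Wdr12 1.53 and 1.92, and Wdr12 had the lowest mean level of the 48 genes. Wdr12 stood at 6.25, 5.98 and 6.63 TPM (CD18wt) and 5.05, 5.5 and 5.85 TPM (CD18Foxp3) before and 20.8, 24.2 and 26.9 TPM (CD18wt) and 30.2, 26.1 and 23.2 TPM (CD18Foxp3) after stimulation. The methyltransferase gene Nop2 gave 2.07 and 1.76, and Mrto4, which holds the place of the stalk protein on the immature subunit, gave 1.82 and 2.06. Early factors gave 1.22 and 1.28 (Noc3l), 1.79 and 1.89 (Rrp1b), 2.04 and 1.92 (Nop16), 1.5 and 1.56 (Ebna1bp2), and 1.26 and 1.39 (Nip7). Rrs1, which helps bring the 5S particle in, gave 1.54 and 1.46, and Grwd1, a chaperone of a ribosomal protein, 1.66 and 1.76. Wdr74 was called on all exon reads (1.28 ± 0.14, adjusted p = 9.3e-06, and 1.14 ± 0.15, adjusted p = 2.3e-04), but only 5.4% of its reads were uniquely placed, 19 to 87 reads per library. It overlaps Gm45736 on the same strand over 4784 bases, and on uniquely placed reads it was not called, at 0.87 ± 0.43 (adjusted p = 0.106) and 0.78 ± 0.32 (adjusted p = 0.059).

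Of the 4 RNA helicases, which unwind ribosomal RNA and snoRNA pairings, 3 were called higher in both genotypes (medians 1.00 and 1.13). Ddx21, which links RNA polymerase I and II transcription with processing, was the most abundant, at 144, 149 and 146 TPM (CD18wt) and 138, 139 and 136 TPM (CD18Foxp3) before and 401, 434 and 547 TPM (CD18wt) and 424, 491 and 420.0 TPM (CD18Foxp3) after stimulation (1.25 ± 0.14, adjusted p = 1.5e-05, and 1.33 ± 0.10, adjusted p = 8.9e-06). Dhx33, a helicase with a role in RNA polymerase I transcription, was the next to lowest of the set in mean level and changed most of the 4 in CD18wt, from 7.03, 8.77 and 6.78 TPM (CD18wt) and 8.98, 7.47 and 8.88 TPM (CD18Foxp3) to 22.6, 26.7 and 30.6 TPM (CD18wt) and 29.5, 26.4 and 22.6 TPM (CD18Foxp3) (1.43 ± 0.16, adjusted p = 9.3e-06, and 1.27 ± 0.14, adjusted p = 7.1e-05). Ddx18, a nucleolar helicase of large subunit assembly, gave 0.75 and 0.99. Ddx10 (ENSMUSG00000053289, chromosome 9, 53098635 to 53248053) was not called in either genotype. It stood at 57.6, 63.9 and 63.1 TPM (CD18wt) and 62.7, 55.7 and 54.3 TPM (CD18Foxp3) before and 93.5, 94.9 and 117 TPM (CD18wt) and 106, 109 and 95.9 TPM (CD18Foxp3) after stimulation, with 0.32 ± 0.13 (adjusted p = 0.059) in CD18wt and 0.48 ± 0.11 (adjusted p = 0.0058) in CD18Foxp3, where the p passed but the change was under 1.5-fold, as it was without CD18Foxp3 stimulated replicate 1 (0.43 ± 0.09, adjusted p = 0.0018).

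**Figure D3:**
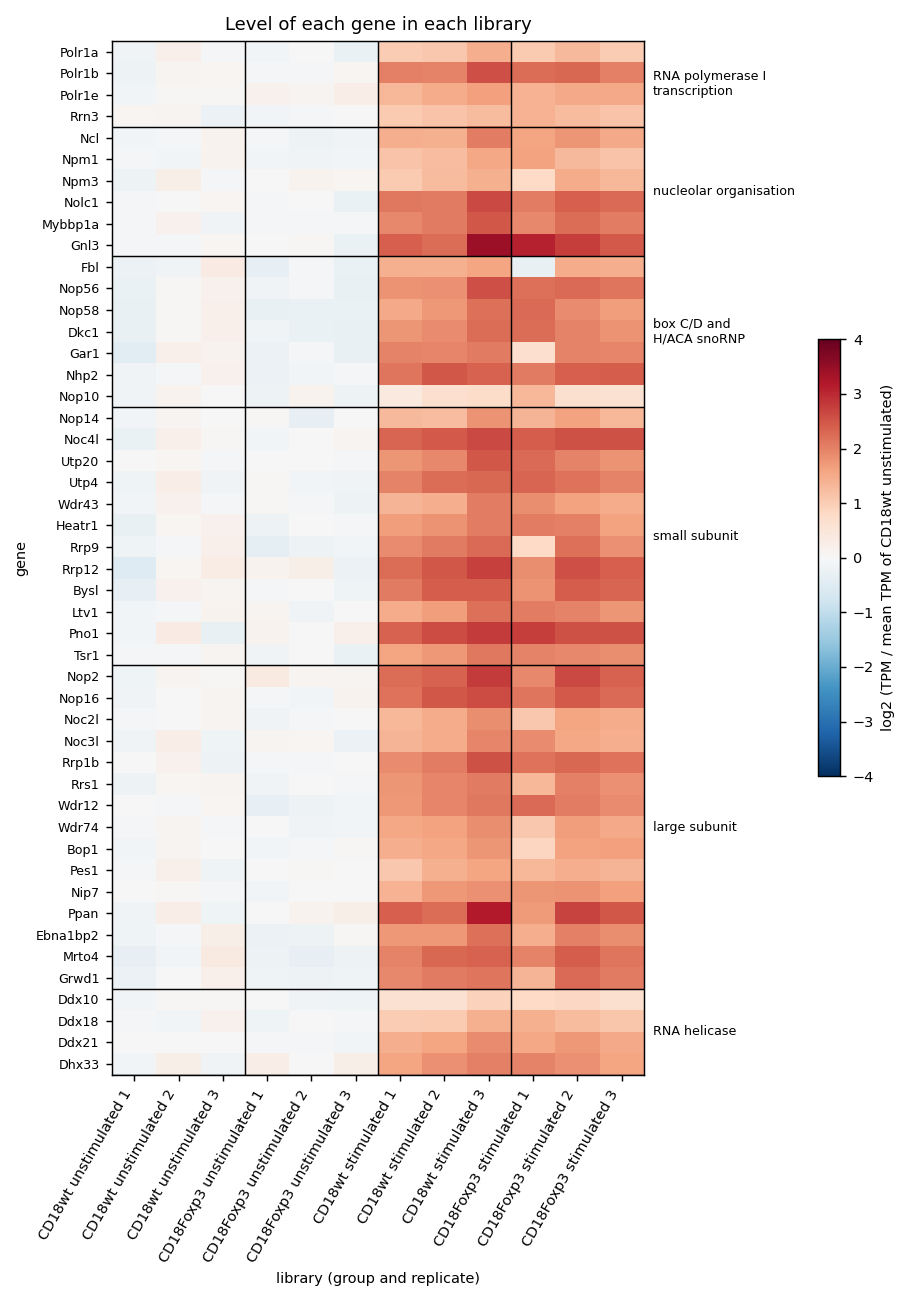
Level of each of the 48 genes (rows, by role) in each of the 12 libraries (columns, by group), as log2 of its TPM over the mean TPM of the gene in unstimulated CD18wt Treg. Stimulated columns are high in nearly every row; the row of Fbl is low in CD18Foxp3 stimulated replicate 1.

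**Figure D4:**
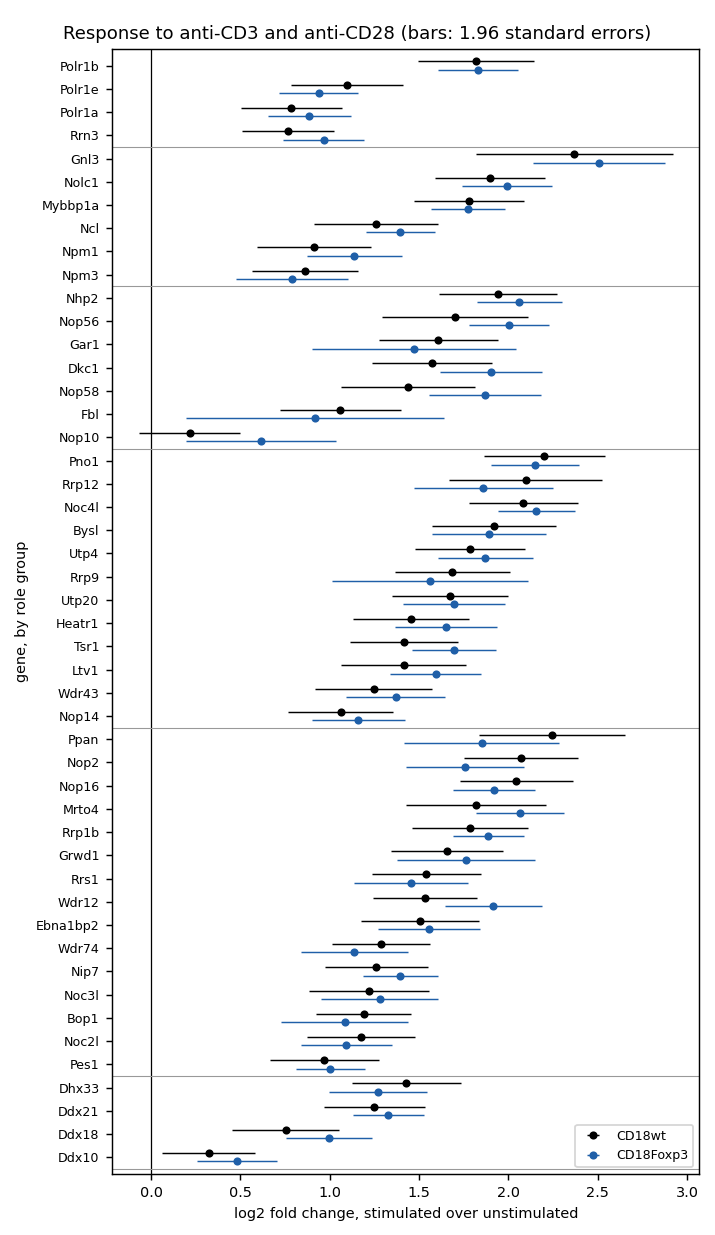
Log2 fold change on stimulation of each of the 48 genes in CD18wt and CD18Foxp3 Treg, by role; points are edgeR estimates and bars their 95% intervals. Gnl3 is highest (2.37 and 2.51), and Nop10 and Ddx10 are lowest in CD18wt (0.22 and 0.32).

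Genes of the same process outside the set, listed from general knowledge of ribosome biogenesis, had lower medians than the 48. This contrast is a description only, because the 48 genes and the lists were chosen with earlier results of these data known. Of 106 other biogenesis factors, 67 were called higher and 3 lower in CD18wt (median log2 fold change 0.78), and 64 and 3 in CD18Foxp3 (median 0.89). Among 11 other RNA polymerase I factors 2 were higher and 1 lower in CD18wt, no larger a share than over all genes (18.7% and 14.9%), led by Cd3eap (1.73, a subunit) and Taf1d (0.95, not called), with Taf1b, of the promoter complex, lower (-0.59) and the terminator Ttf1 not called (-0.54); in CD18Foxp3 2 were higher, where 20.9% of all genes were. Other small subunit factors were higher in 25 of 41 in both genotypes, led by Wdr75 (1.63) and the acetyltransferase Nat10 (1.59), with Emg1 (-0.18) and Ngdn (-0.13) lowest and not called. Other large subunit factors were higher in 33 and lower in 2 of 46 in CD18wt, and in 31 and 3 in CD18Foxp3, led by Nle1 (1.82) and Rpf2 (1.76). The factors Nop53 (-0.96), which brings the exosome to the particle, and Nsa2 (-0.95) were lower. Assembly factors of snoRNPs were higher in 7 of 8 in CD18wt and 6 of 8 in CD18Foxp3, led by Naf1 (1.66) and Shq1 (1.60), with Tcof1 at 0.63 and Pih1d1 at -0.16 (not called).

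Exosome genes, whose products trim the RNA, were higher in 6 and lower in 1 of 12 in CD18wt and higher in 7 of 11 in CD18Foxp3, led by Dis3 (2.07) and Exosc2 (1.41), with Exosc5 at 0.10. Exosc6, the lower one, had 170 exon reads in the unstimulated and 0 in the stimulated CD18wt group. That was at least 63.1-fold lower against a floor of 3 reads over the group. Exosc6 also had 0 exon reads in every CD18Foxp3 library, the unstimulated ones included. No read of it in any library was uniquely placed, so its level and this difference are uncertain. Of 10 RNA polymerase III subunits 4 were higher and 1 lower in CD18wt and 3 and 1 in CD18Foxp3. Its alternative subunit genes Polr3g and Polr3gl moved in opposite directions. Polr3g went from 3.08, 5.13 and 2.31 to 12.7, 19.9 and 22.9 TPM in CD18wt (2.0 ± 0.31, adjusted p = 1.6e-04, and 1.74 in CD18Foxp3), and Polr3gl from 41.4, 35.3 and 48.9 to 21.3, 8.29 and 13 TPM (-2.0 ± 0.29, adjusted p = 1.3e-04, and -1.85 in CD18Foxp3). Polr3d gave 1.36 and Polr3b 0.03. For comparison, RNA polymerase II subunits were higher in 3 of 7 in both genotypes, with Polr2c at 0.88, Polr2d at 0.79, Polr2a at 0.03 and Polr2g at -0.20.

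The messenger RNAs of the ribosomal proteins that the machinery assembles ran the other way. Of 78 cytosolic ribosomal protein genes 56 were called lower in CD18wt (edgeR, median log2 fold change -0.92) and 57 in CD18Foxp3 (median -0.81), relative to the median gene. On the log2(TPM + 1) scale, which moves the median gene up, 27 and 30 were called lower, with medians of -0.52 and -0.46. The lowest were Rps27 (-1.91, with 0.6% of its reads uniquely placed) and Rps15a (-1.53), and the highest Rps12 (0.62) and Rps2 (0.20), neither called. Their summed level went from 225438, 233191 and 276159 TPM in unstimulated to 163682, 176471 and 169602 TPM in stimulated CD18wt libraries, and from 239047, 248633 and 233338 to 171069, 166388 and 168242 TPM in CD18Foxp3. The 48 biogenesis genes therefore amounted to 1.37% to 1.55% of the ribosomal protein TPM in the 6 unstimulated libraries and to 5.99% to 7.87% in the 6 stimulated ones, without overlap.

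Myc was at 76.1, 115 and 47.6 TPM in unstimulated CD18wt and 69.7, 85.3 and 72.5 TPM in unstimulated CD18Foxp3, and at 284, 369 and 485 TPM (CD18wt) and 334, 381 and 295 TPM (CD18Foxp3) after stimulation. It rose in both genotypes, by 1.87 ± 0.31 (adjusted p = 0.0016) and 1.78 ± 0.14 (adjusted p = 9.1e-06), and differed between the genotypes by -0.09 ± 0.29 (adjusted p = 0.959) in unstimulated and -0.16 ± 0.19 (adjusted p = 0.998) in stimulated Treg, not called.

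Reads over introns were counted apart from exon reads in the same libraries. They made up 3.32% to 5.99% of the reads. In CD18wt 41 of the 48 genes had enough intron reads to be tested, and 2 were called higher and 1 lower, where 2.71% and 5.09% of all 9492 genes tested were. The median log2 fold change of the 41 genes was 1.05, against 0.05 over all genes. In CD18Foxp3 44 were tested, and 19 were called higher and 2 lower, against 15.3% and 15.1% of 10260 genes, with a median of 1.16 against 0.06. Nop2 rose most clearly, from 21, 32 and 5 intron reads in unstimulated to 145, 116 and 259 in stimulated CD18wt libraries and from 30, 24 and 35 to 263, 284 and 206 in CD18Foxp3, with 2.71 ± 0.38 (adjusted p = 2.0e-04) and 2.53 ± 0.25 (adjusted p = 1.2e-12) on the log2 scale. Mybbp1a went from 3, 10 and 0 to 31, 48 and 158 intron reads in CD18wt and from 13, 9 and 17 to 83, 108 and 48 in CD18Foxp3 (3.64 ± 0.71, adjusted p = 0.0021, and 2.04 ± 0.38, adjusted p = 1.8e-05). In both genes the stimulated libraries lay above the unstimulated ones.

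Ddx10 moved the other way in its introns. It had 115, 211 and 53 intron reads in unstimulated and 44, 41 and 78 in stimulated CD18wt Treg, and 165, 88 and 111 before and 101, 77 and 34 after stimulation in CD18Foxp3, with -1.68 ± 0.33 (adjusted p = 0.0025) and -1.35 ± 0.26 (adjusted p = 2.6e-05) on the log2 scale, while its exon reads gave 0.32 and 0.48. Bysl intron reads were also called lower in CD18Foxp3, from 86, 52 and 39 to 27, 22 and 21 (-1.85 ± 0.36, adjusted p = 2.6e-05), and stood at 50, 67 and 5 before and 23, 13 and 35 after stimulation in CD18wt. Bysl overlaps Ccnd3 on the opposite strand over 361 bases. Whether the counting used the strand is not given in the sources used here, so reads of the pair within this overlap cannot be told apart. Other genes of the set also overlap a gene on the opposite strand, among them Pno1 (Wdr92, 8371 bases) and Rrp9 (Parp3, 987 bases). CD18wt unstimulated replicate 3, the library with the fewest reads, had the lowest intron count of its group in Nop2, Mybbp1a, Ddx10 and Bysl. The CD18wt intron calls changed with the processing: 1 gene was higher and 0 lower with the replicate number as a block.

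Several of the genes carry snoRNA genes in their introns. In the annotation 8 of the 48 genes (16.7%) host 23 snoRNA genes, against 214 of 11249 protein-coding genes tested (1.90%). Nop56 hosts 5, Nop58 4, Gnl3, Ncl and Wdr43 3 each, Ppan and Tsr1 2 each and Dkc1 1. This is a property of the genes and was not measured in these poly(A) libraries.

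Whether loss of CD18 changed these genes was asked in each culture. In unstimulated Treg 0 of the 48 genes were called higher or lower by edgeR, where 0.0507% and 0.0845% of 11829 genes were (0.135% in either direction), and DESeq2 and limma also called 0. At an unadjusted p under 0.05, 1 of the 48 genes passed, against 9.59% of all genes. The log2 differences, CD18Foxp3 minus CD18wt, ranged from -0.29 to 0.18, and the 95% interval lay within 1.5-fold either way for 47 of the 48 genes. The widest interval, of Rrp12, ran from -0.39 to 0.48. Of the 48 differences 41 were below 0, where 51.0% of all genes were, but with 1 library left out in turn the number ranged from 31 to 43, the lowest without CD18wt unstimulated replicate 3. Every CD18Foxp3 library was above every CD18wt library in TPM for Polr1e and Nop2 (8.74% of all genes) and under for Wdr12 and Ddx21 (6.9% of all genes).

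Nop58, the box C/D core protein, had the smallest p of the set in unstimulated Treg. It stood at 21.5, 27.4 and 30.0 TPM in CD18wt and 21.6, 22.1 and 22 TPM in CD18Foxp3, a log2 difference of -0.29 ± 0.13 (adjusted p = 0.498), with an unadjusted p of 0.042 in the edgeR quasi-likelihood test. Dkc1 was next, at 38.8, 49 and 55.1 TPM (CD18wt) and 43, 39.4 and 38.4 TPM (CD18Foxp3) (-0.27 ± 0.14, adjusted p = 0.585), and then Wdr12 (-0.23 ± 0.12, adjusted p = 0.604), whose levels are given above. Nop58 and Dkc1 libraries overlapped between the genotypes, and none of the 3 was called.

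After stimulation 0 of the 48 genes were called by edgeR, with 0.0% of 11930 genes called in either direction, and DESeq2 and limma called 0 of the 48. The targeted gene Itgb2, whose values are given above, was itself not called by edgeR here, so the lack of calls does not exclude a difference. At an unadjusted p under 0.05 none of the 48 passed, against 4.89% of all genes. The log2 differences ranged from -0.39 (Fbl) to 0.30 (Nop10), and from -0.18 to 0.14 without CD18Foxp3 stimulated replicate 1. The 95% interval lay within 1.5-fold either way for 43 genes, and was widest for Fbl, from -1.14 to 0.36. In TPM, 0 of the 48 genes had every CD18Foxp3 library above, or every one under, the CD18wt libraries, where 5.02% and 4.41% of all genes did. The smallest p belonged to Nop10 (0.30 ± 0.21, adjusted p = 0.998), then Wdr74, at 173, 183 and 217 TPM in CD18wt and 124, 187 and 171 TPM in CD18Foxp3 (-0.24 ± 0.17, adjusted p = 0.998), and Rrp9, at 148, 171 and 195 TPM (CD18wt) and 70.3, 184 and 144 TPM (CD18Foxp3) (-0.37 ± 0.27, adjusted p = 0.998). Without CD18Foxp3 stimulated replicate 1 the differences were 0.01 for Nop10 and -0.07 for Rrp9.

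The stimulation responses of the genotypes were compared in an interaction over the 12 libraries. It called 0 of the 48 genes and 0.0% of 12636 genes by edgeR, DESeq2 and limma called 0 of the 48, and at an unadjusted p under 0.05 none of the 48 passed, against 3.84% of all genes. The difference of the responses, CD18Foxp3 minus CD18wt, ranged from -0.40 (Ppan) to 0.42 (Nop58) with a median of 0.08, and from -0.27 to 0.31 without CD18Foxp3 stimulated replicate 1. Of the 48 differences 31 were above 0, a number that was 34 without that library and 16 without CD18wt stimulated replicate 1. The 95% interval lay within 1.5-fold for 29 genes and within 2-fold for 46. The smallest p belonged to Wdr12 (0.38 ± 0.20, adjusted p = 0.987), Nop58 (0.42 ± 0.26, adjusted p = 0.987) and Nop10 (0.39 ± 0.27, adjusted p = 0.987).

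**Figure D5:**
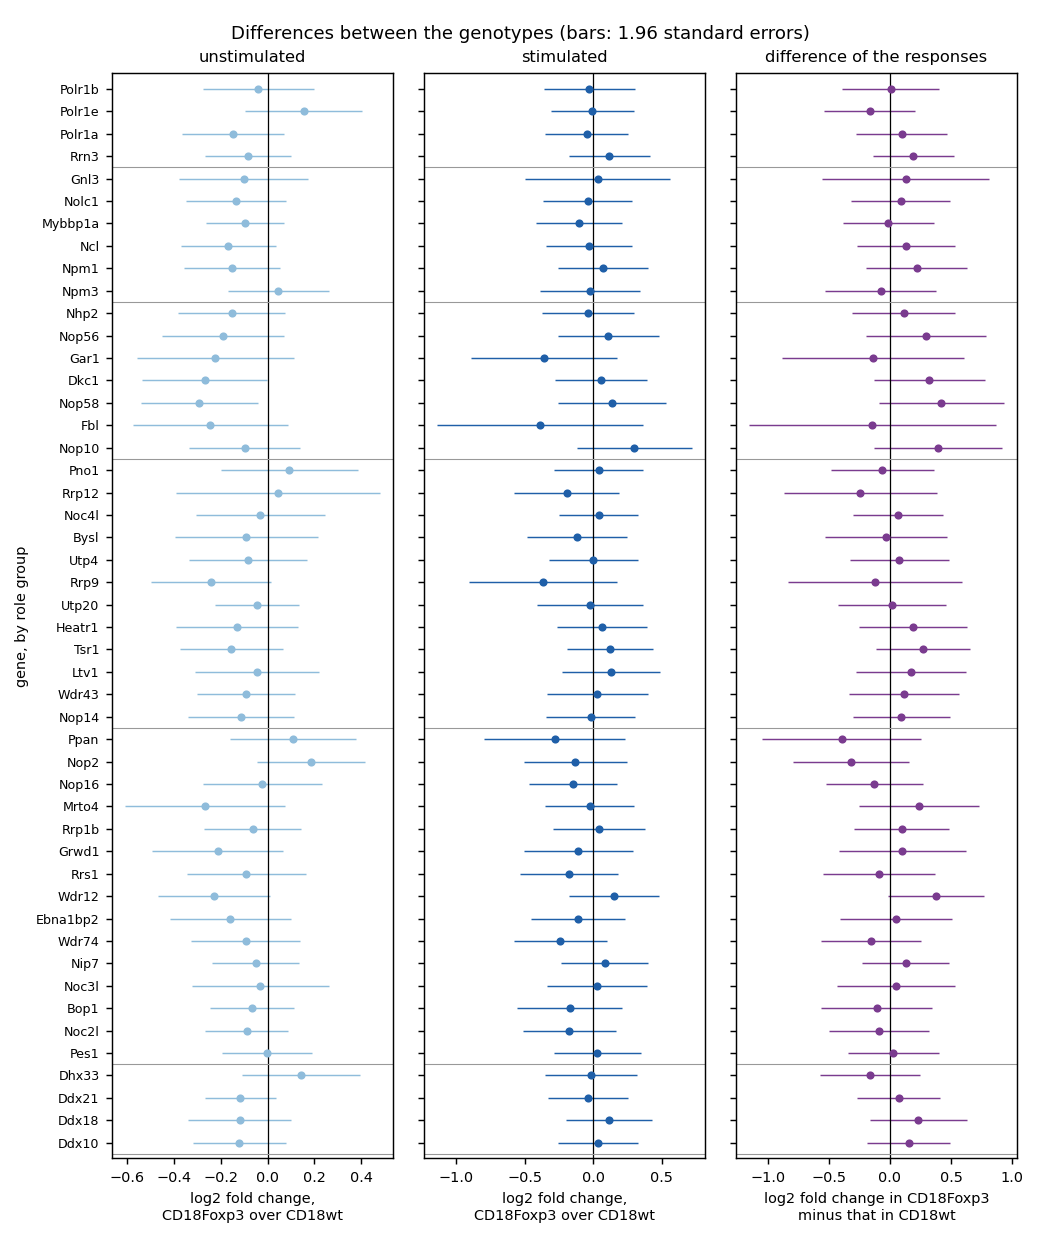
Log2 difference between CD18Foxp3 and CD18wt Treg for each of the 48 genes, by role, in unstimulated cells, in stimulated cells and as the difference of the responses; points are edgeR estimates and bars their 95% intervals. Estimates lie between -0.40 and 0.42, and most bars include 0. The widest bar belongs to Rrp12 in unstimulated cells and to Fbl in the other panels.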

How the data were processed

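Splenic RFP+ CD4+ Treg of 12 samples in 4 groups of 3 were sequenced as poly(A) RNA by the authors, and reads were mapped and counted by gene on mouse GRCm38 per the labels. The deposited tables give, per library, counts of exon reads, uniquely placed exon reads and intron reads per gene, and TPM, the authors' abundance corrected for transcript length and library total, written with decimal commas. The authors trimmed adapters and used CLC Genomics Workbench at its default settings; whether counting used the strand is not stated beyond that. The deposited tables hold per-library values for 41457 genes, and no columns of other samples were used.

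Exon counts were tested with edgeR 4.0.16 in R 4.3.3: TMM scaling, filterByExpr with a minimum count of 10, the robust quasi-likelihood test and Benjamini-Hochberg adjustment over all genes tested, with the threshold at a fold change of 1.5 and an adjusted p of 0.01. Each comparison used its 6 libraries, the interaction all 12. Standard errors are the log2 fold change over the root of F, and intervals are 1.96 standard errors either way. With few libraries these are narrower than 95% intervals of the test. Intron reads were tested in the same way. Alternatives were RLE, upper-quartile and total scaling, no filter, uniquely placed reads, DESeq2 1.42.0, limma 3.58.1 with trend on log2(TPM + 1) and log2(TPM + 0.1), a replicate block, a looser threshold, 1 fit of all 12 libraries and leaving out each library. The fits were tested on simulated data. Promoters came from RefSeq, GC content and shared 59-base words from the transcripts of the reference. Values per library are given for the most abundant gene and the largest and smallest change in CD18wt of each role group, for genes not called on stimulation, and for the smallest p values of the genotype comparisons; of each list of other genes the 2 largest and 2 smallest changes are named. Intron examples and genes with shared reads were chosen after their values were seen. The 48 genes and all lists were chosen with earlier results of these data known.

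The replicate numbers of the labels do not state a shared animal or day. Depth was 10665174 to 19005482 exon reads per library, and p-values cover the spread between libraries of a group.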

Additional observations from a re-analysis of the deposited data

How the results depend on the processing

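The counts of biogenesis genes called on stimulation changed little. In CD18wt they ranged from 45 (uniquely placed reads) to 48 (limma on log2(TPM + 1)) over the alternatives, and were 46 with each library left out. In CD18Foxp3 they ranged from 44 (uniquely placed reads) to 47 (no filter), and from 43 (without CD18Foxp3 unstimulated replicate 1) to 46 with a library left out. In both genotype comparisons and the interaction 0 of the 48 genes were called under every alternative run. Over all genes the genotype comparison called 16 genes in unstimulated Treg, with 0 to 134 over the alternatives and 0 to 44 with a library left out (44 without CD18wt unstimulated replicate 3); without a filter 61 genes were called in stimulated Treg and 31 in the interaction.

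The intron results in CD18wt rested on few reads. The number of genes called higher was 2, with 4 without a filter, and 1 to 3 with a library left out (1 without CD18wt stimulated replicate 2 or 3, 3 without CD18wt unstimulated replicate 3); the number called lower was 1, with 0 on the exon totals and factors and 0 to 1 with a library left out (0 without CD18wt unstimulated replicate 2 or any of the 3 stimulated libraries). In CD18Foxp3 14 to 17 genes were called higher with a library left out and 16 to 25 under the other alternatives. The cause was not tested.

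With the replicate block, the number called on stimulation was 46 in CD18wt and 45 in CD18Foxp3, 0 in the genotype comparisons and the interaction, and 19 higher and 2 lower for introns in CD18Foxp3; for introns in CD18wt it was 1 higher and 0 lower. The numbers were not taken to pair the samples: same-numbered libraries gave correlations of 0.096, -0.019 and -0.095 in CD18wt and 0.135, 0.070 and 0.147 in CD18Foxp3, where each library correlated best with its own number.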
